A study of Homo sapiens with 45 samples.

Results

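The CTCF list and the TET1 list of DMSO-treated HEK293T cells were compared region by region. HEK293T is a human embryonic kidney line. The CTCF list held 17440 distinct regions and the TET1 list 7211, which makes 24651 of the 53743 regions in the 12 peak lists of the series. A region is a distinct chromosome, start and end in a list, and its summit is the base of highest enrichment. All coordinates are in hg19. Chromatin immunoprecipitation and sequencing (ChIP-seq) had been run on 3 libraries for each antibody after 72 h in DMSO, the solvent control, and the authors called peaks on the 3 libraries together. Every value below therefore comes from 1 list per antibody and has no replicate error, and the 95% Wilson intervals cover counting over regions only. The labels do not say whether the 3 libraries came from separate cultures. Lists from cells kept for 72 h in 30 µM BPK25 or 0.5 mM IAA were used only to see which DMSO regions recur there. The growth protocol also names edited derivatives of the line, and the labels do not say whether these libraries came from such cells. Markers of the cell line cannot be read from peak lists.

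CTCF is a zinc finger protein that binds a long, defined DNA motif, blocks enhancers at insulators and stops cohesin at the anchors of chromatin loops. Methylation of CpG sites inside some of its motifs lowers its binding. TET1 is a dioxygenase that oxidises methylcytosine to hydroxymethylcytosine and further products, the first steps of active demethylation, and it carries a CXXC domain that binds CpG-rich DNA. MBD2 and MBD3, the other proteins measured in DMSO, are alternative subunits of the NuRD remodelling and deacetylase complex. The comparison bears on how closely a methylcytosine oxidase and CTCF share positions on DNA.

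Where both antibodies listed a region, the summits lay almost on top of each other. Overlap of 1 bp or more joined 5910 CTCF regions, 33.9% of that list, to 5922 TET1 regions, 82.1% of theirs, in 5931 pairs. The median distance between the summits of a pair was 14 bp (interval of the median 13 to 14). Of the pairs, 40.7% (39.4 to 41.9) had summits within 10 bp, 89.6% (88.8 to 90.4) within 50 bp and 96.3% within 150 bp, and 2.07% shared the same summit base. For scale, no CTCF region was narrower than 195 bp and no TET1 region narrower than 194 bp. The TET1 summit had the higher coordinate in 3078 pairs and the lower in 2730, or 51.9% and 46.0%. The pairing was close to 1 to 1, with 21 CTCF regions that met 2 TET1 regions and 9 TET1 regions that met 2 CTCF regions.

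**Figure D1:**
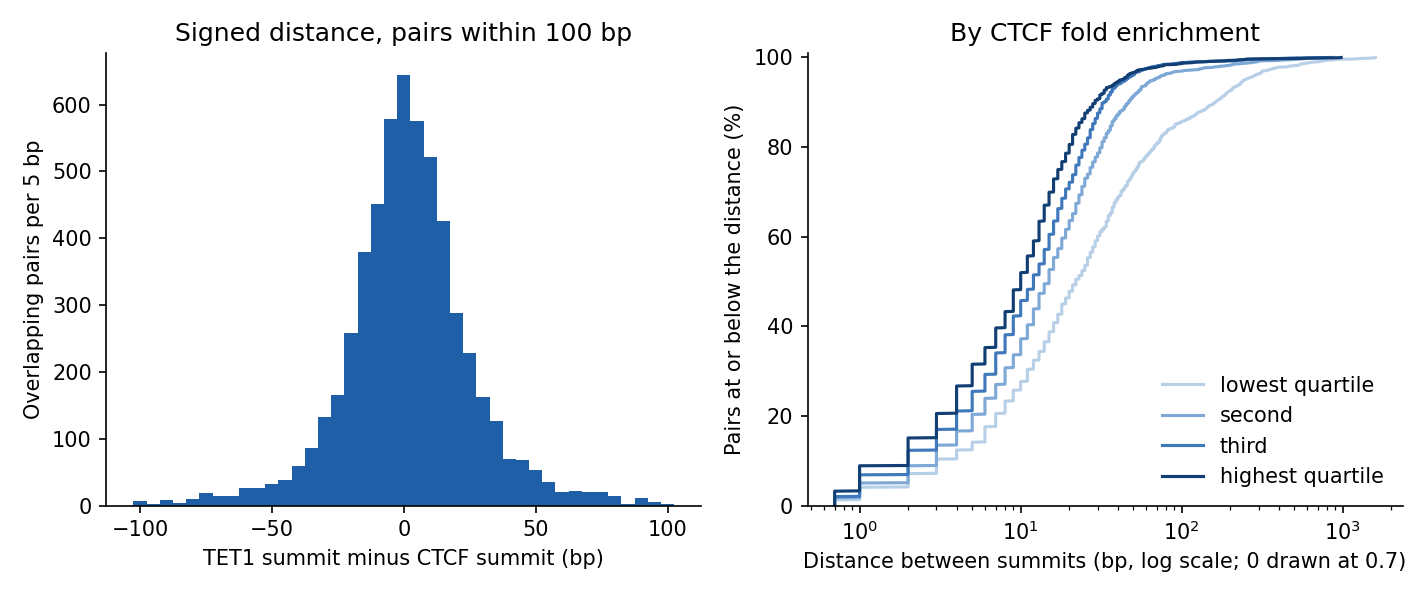
Left, number of overlapping pairs per 5 bp of signed distance from the CTCF to the TET1 summit, for pairs within 100 bp. Right, cumulative share of pairs against the distance between summits (log scale) in 4 quartiles of CTCF fold enrichment; the curve of the highest quartile, with a median of 10 bp, lies left of that of the lowest, with a median of 22 bp.

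Summits lay closer in pairs of higher fold enrichment, the authors' ratio of the fragments over a summit to those expected locally. With the pairs in quartiles of rising CTCF fold, the median distance was 22, 15, 12 and 10 bp, and the share within 50 bp was 74.4%, 91.4%, 96.2% and 96.6%. Ordered by TET1 fold, the medians were 22, 15, 12 and 10 bp as well. Over all pairs, Spearman's rho between CTCF fold and summit distance was -0.28, a description over 5931 pairs from the same lists.

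Pairs with distant summits were mostly wide or had several summits. Only 218 pairs, 3.68%, had summits over 150 bp apart, and 131 of these held 2 or more summits in at least 1 of the regions, against 391 such pairs in all. Their median width was 464 bp for CTCF and 372 bp for TET1. Pairs with 1 summit on each side, 5540 in number, had 1.57% beyond 150 bp, while pairs with several summits on either side had 33.5%. When the nearest summits of a pair were taken in place of the strongest, 106 pairs stayed beyond 150 bp. Both regions held 2 or more summits in 114 pairs, only the CTCF region in 166 and only the TET1 region in 111.

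The 3 named pairs with the most distant summits showed this shape. On chromosome X, a TET1 region from 73036809 to 73039858 spanned 3050 bp with 8 summits, the most in the list, and overlapped a CTCF region of 846 bp from 73036811 to 73037656. Their strongest summits were 1594 bp apart, but the nearest pair of summits was 55 bp apart. The CTCF fold was 3.09 and the TET1 fold 3.69. On chromosome 7, CTCF from 26226369 to 26228735 had 7 summits and TET1 from 26226291 to 26228454 had 5, with 1579 bp between the strongest and 30 bp between the nearest. The folds there were 3.78 and 3.89, and the place was also listed for MBD2 and TET1 under BPK25. The other pair on chromosome X joined TET1 from 107966126 to 107967747, with 4 summits, to CTCF from 107967475 to 107967951. Their strongest summits were 1501 bp apart and even the nearest 420 bp, so this pair overlapped without a summit in common.

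On the same CTCF regions, the distances to the MBD2 and MBD3 summits were of the same order. At 3978 CTCF regions with exactly 1 overlapping region of each other antibody, the median distance from the CTCF summit was 12 bp to TET1, 10 bp to MBD2 and 10 bp to MBD3. The shares within 50 bp were 92.4% (91.5 to 93.2), 94.9% (94.2 to 95.6) and 94.7% (94.0 to 95.4). TET1 summits were 11.5 bp from MBD2 and 12 bp from MBD3 summits in the median. MBD2 and MBD3 summits were 10 bp apart. The 3 medians that involve TET1 were thus the longest of the 6, and with 1 list per antibody the difference was not tested.

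CTCF regions in pairs were wider than the others. CTCF regions with a TET1 region had a median width of 280 bp (278 to 283) and those without 240 bp (239 to 241). A width of 300 bp or more was found for 39.2% (38.0 to 40.5) and 16.1% (15.5 to 16.8) of them. For TET1, the medians were 237 bp (236 to 239) with CTCF and 225 bp (222 to 228) without. This TET1 difference of 12 bp (8 to 17) was 5 bp (0 to 9) with pairs defined by summits within 150 bp and 23 bp (0 to 54) at a fold of 5 or more, so it was not distinct from 0 under either. Within a pair the CTCF region was the wider one in 4495 cases and the TET1 region in 1395, and TET1 regions were a median of 38 bp narrower. In 48.9% of pairs the whole TET1 region lay inside the CTCF region. The median overlap was 221 bp, and 42 pairs overlapped by under 50% of the shorter region. In bases, the overlap took up 30.02% of the 4813404 bp covered by CTCF regions and 75.6% of the 1911571 bp covered by TET1. By decile of CTCF width, TET1 was listed at 13.5% (12.0 to 15.2) of regions of 195 to 205 bp and at 62.4% (60.1 to 64.6) of those of 360 bp or more.

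Stronger CTCF regions had a TET1 region more often. The pileup, the number of fragments over the summit, was recovered from the authors' fold and p-value for 98.9% of CTCF and 98.3% of TET1 regions. It counts all fragments, those expected locally among them, and regions without a recovered pileup are left out of the deciles. Of CTCF regions in the lowest pileup decile (14 to 23 fragments), 9.10% (7.83 to 10.5) had a TET1 region, against 33.9% overall. The share was 29.9% (27.8 to 32.1) in decile 5, at 35 to 38 fragments, and 70.6% (68.4 to 72.7) in decile 10, at 63 fragments or more. In the other direction the shares began higher. TET1 regions in the lowest decile (17 to 24 fragments) met a CTCF region in 40% (36.5 to 43.6) of cases, those in decile 5 in 86.2% (83.4 to 88.5) and those in decile 10 in 98.5% (97.2 to 99.1). TET1 regions of high pileup without CTCF were therefore rare in these lists, while CTCF regions of high pileup without TET1 were not. The TET1 list was the shorter one, with 7211 regions against 17440. Pairing was close to 1 to 1, and the part of list length in this contrast was not tested.

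**Figure D2:**
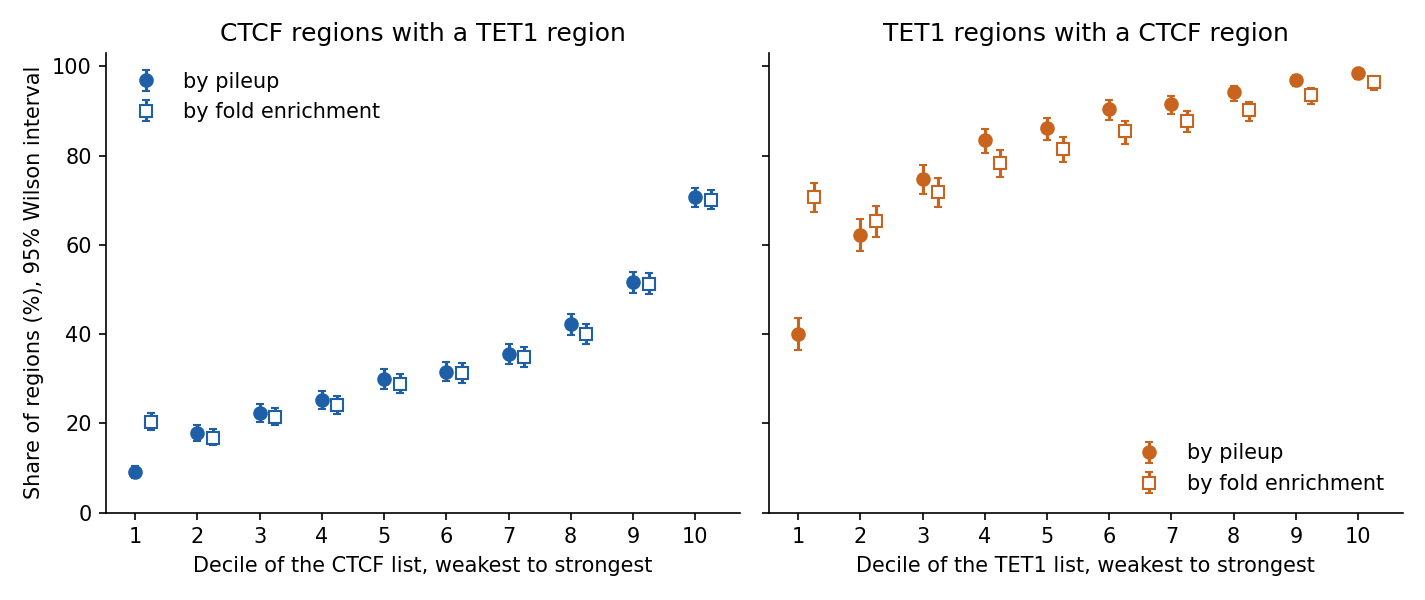
Share of CTCF regions with a TET1 region (left) and of TET1 regions with a CTCF region (right) by decile of pileup (filled circles) and of fold enrichment (open squares); bars are 95% Wilson intervals. By pileup the shares go from 9.10% to 70.6% for CTCF and from 40% to 98.5% for TET1, while by fold the weakest decile stands above the next one in both lists.

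Ordered by fold, the weakest decile broke the order in both lists. It held TET1 at 20.3% (18.5 to 22.3) of CTCF regions, above the 16.8% (15.1 to 18.6) of decile 2, and CTCF at 70.8% (67.4 to 74.0) of TET1 regions, above 65.3% (61.8 to 68.7). Regions of low fold can have many fragments over a high local background, which is the number of fragments expected at the place. The least background of a list, its floor, was 4.35 fragments for CTCF and 5.68 for TET1. With only regions of at most 3 times the floor, decile 1 held TET1 at 12.9% and decile 2 at 15.3% of CTCF regions, and the shares for TET1 were 56.7% and 59.7%. Decile 1 stood above decile 2 in the whole lists and below it here, with overlapping intervals each time. The part of raised background in the break was not tested. Pileup includes this background. In pileup decile 10, 894 of 1726 CTCF and 270 of 710 TET1 regions had a solved background of at most 3 times the floor. Of these, 79.2% and 99.3% met the other list.

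Pairs of very low fold were few. CTCF fold was under 2 in 131 pairs, with medians of 1.72 for CTCF and 1.45 for TET1. A background could be solved for 34 of them, and all 34 were above 3 times the floor. Of the 131 pairs, 34 lay off chromosomes 1 to 22 and X, against 26 of the other 5800. Their median summit distance was 12 bp.

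The lists differed in how weak a region they still held. At the floor, the weakest listed region had 14 fragments and a fold of 2.81 for CTCF, and 17 fragments and a fold of 2.69 for TET1. The median fold was 4.31 in the CTCF list and 3.37 in the TET1 list. Of TET1 regions without CTCF, 34.6% (32.1 to 37.2) had a −log10 q of 5 or more, against 77.7% (76.6 to 78.8) of those with CTCF. Of CTCF regions, the shares were 80.9% without and 94.8% with TET1. A CTCF region without a TET1 region is thus one where TET1 did not pass its limit, and absence of TET1 cannot be read from it.

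Fold enrichment ranked the pairs alike in both lists. Over the 5931 pairs, Spearman's rho of CTCF fold and TET1 fold was 0.70, and rho of the −log10 q was 0.67. Of pairs in the highest quartile of CTCF fold, 61.2% (58.7 to 63.7) were in the highest quartile of TET1 fold and 2.70% (1.99 to 3.65) in the lowest. Of those in the lowest CTCF quartile, 62.6% (60.1 to 65.0) were in the lowest TET1 quartile and 2.36% in the highest. The CTCF fold was the larger one in most pairs, and TET1 was higher in 344 pairs. Over the 5803 pairs with a solved pileup, the median of the TET1 fold over the CTCF fold was 0.70, with 0.54 and 0.94 at the 10th and 90th percentiles.

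**Figure D3:**
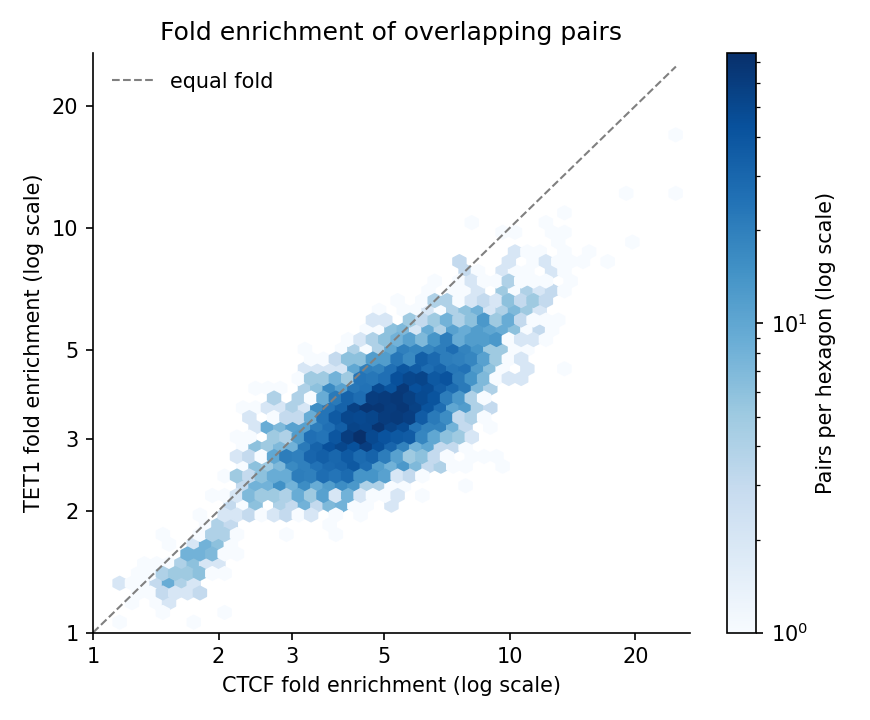
CTCF fold enrichment (horizontal, log scale) against TET1 fold enrichment (vertical, log scale) of the 5931 overlapping pairs, as hexagons shaded by the number of pairs; the dashed line marks equal fold. Most pairs lie below the line along 1 rising cloud, and a small group of 131 pairs lies at CTCF folds under 2.

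Local background, which enters both folds, was nearly the same in rank. The recovered local backgrounds of a pair had a rho of 0.97, with a median TET1 to CTCF ratio of 1.32, and in 65.6% of 5803 solved pairs the ratio was within 5% of that median. The labels name 1 set of 3 DMSO input libraries, and whether both lists used them is not stated there. The part of a common background in the agreement of fold was not tested, but values at like background can be given. Within quartiles of CTCF background, from the lowest to the highest, rho of fold was 0.60, 0.58, 0.65 and 0.73. For pairs of at most 3 times the floor in both lists, rho was 0.65, and for those above it in either list 0.79. Where summits were over 50 bp apart, rho of fold was 0.53 over 614 pairs, against 0.68 within 50 bp.

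At the 3978 CTCF regions listed once for each antibody, rho of fold was 0.71 for CTCF and TET1. It was 0.75 for CTCF and MBD2, 0.74 for CTCF and MBD3, 0.71 for TET1 and MBD2 and 0.71 for TET1 and MBD3. TET1 was ranked about as much like the NuRD subunits as like CTCF on this set. These values share the same regions, and MBD2 and MBD3 had a rho of 0.74 with each other.

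Nearly all of the 100 CTCF regions of highest fold had a TET1 region, and the share fell further down the list. Of these 100, 99 had a TET1 region, as had 779 of the top 1000 and 1374 of the top 2000. In the whole CTCF list the share was 33.9%. All of the 100 TET1 regions of highest fold had a CTCF region, and so did 963 of the top 1000, against 82.1% of the whole TET1 list. By −log10 q in place of fold, 85 of the top 100 CTCF regions had a TET1 region. Of the top 100 by fold, 52 CTCF regions met one of the top 100 TET1 regions, and 498 of the top 1000 met one of the top 1000. With regions near chromosome ends or of raised background left out, 97 of the top 100 CTCF regions by fold had a TET1 region and 53 met the top 100 of TET1. By −log10 q, 98 of the top 100 CTCF regions had a TET1 region under this limit.

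The 4 named pairs of high rank in both lists had summits within 20 bp. On chromosome 17, CTCF from 43212638 to 43212959 had a fold of 13.5 (rank 12 of its list) and TET1 from 43212669 to 43212946 a fold of 9.98 (rank 8), with summits 2 bp apart. The same place had folds of 16.2 for MBD2 and 13.4 for MBD3, and 6.44 for TET1 under BPK25. Also on chromosome 17, CTCF from 18965078 to 18965796 (fold 13.4) and TET1 from 18965090 to 18965818 (fold 11.05) had summits 1 bp apart, at pileups of 166 and 177 fragments. This place was listed in 9 of the 12 lists, among them all 4 under BPK25 and CTCF under IAA. A pair on chromosome 1, CTCF from 21694990 to 21695287 and TET1 from 21694996 to 21695268, shared its summit base and had folds of 13.8 and 8.57. On chromosome 5, CTCF from 51652152 to 51652547 (fold 13.04) and TET1 from 51652189 to 51652467 (fold 8.91) lay over a low background of 4.67 and 6.18 fragments and were listed in DMSO alone.

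Pairs with the largest difference in rank were of another kind. Among pairs that passed the limits for naming, the largest gains in percentile from CTCF to TET1 were at the CTCF region on chromosome 2 from 221552024 to 221552231, at percentile 24.6 of CTCF (fold 3.497) and 90.7 of TET1 (fold 4.81), and at that on chromosome 4 from 76498722 to 76499067, at 18.1 (fold 3.25) and 83.1 (fold 4.34). Their summits were 43 and 81 bp apart, and MBD2 had folds of 4.29 and 5.27 there. The largest losses lay on chromosome 1, in wide CTCF regions with several summits. CTCF from 16839523 to 16840780 had 3 summits and a fold of 7.79, while the overlapping TET1 region from 16839586 to 16839796 had a fold of 2.24. Its only summit was 926 bp from the strongest of CTCF, but 7 bp from another CTCF summit, and a further TET1 region at the same CTCF region had a fold of 7.36. The other loss, CTCF from 226251996 to 226252937 (fold 6.86) with TET1 from 226252598 to 226252864 (fold 2.52), was alike, with 554 bp between the strongest and 9 bp between the nearest summits. These losses thus compare different summits of a region.

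TET1 regions without CTCF were weak and few lay close to a CTCF region. The 1289 such regions had a median fold of 2.92 and a median pileup of 27 fragments, against 3.49 and 41 for TET1 regions with CTCF. For 1287 of them a CTCF region lay on the same chromosome or contig, at a median gap of 40093 bp (37111 to 44410). Of these, 12 lay within 250 bp, 54 (4.20%, 3.23 to 5.43) within 1000 bp and 268 (20.8%, 18.7 to 23.1) within 10000 bp, and 3 lay over 1000000 bp away. Regions that just missed an overlap were thus few. MBD2 regions without CTCF lay a median of 42310 bp and MBD3 regions without CTCF 42092 bp from the nearest CTCF region, with intervals that overlap that of TET1.

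CTCF regions without TET1 lay farther from the nearest TET1 region, at a median gap of 102103 bp (98282 to 105717) over 11497 regions. Only 17 lay within 250 bp, and 162 (1.41%, 1.21 to 1.64) within 1000 bp. The TET1 list is the shorter one. With the CTCF list cut to its 7211 regions of highest −log10 q, the median gaps were 89619 bp from CTCF to TET1 and 99639 bp from TET1 to CTCF, and the order turned. At this equal length 51.8% of CTCF and 51.9% of TET1 regions overlapped, and pairing close to 1 to 1 makes these shares nearly equal by construction.

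**Figure D4:**
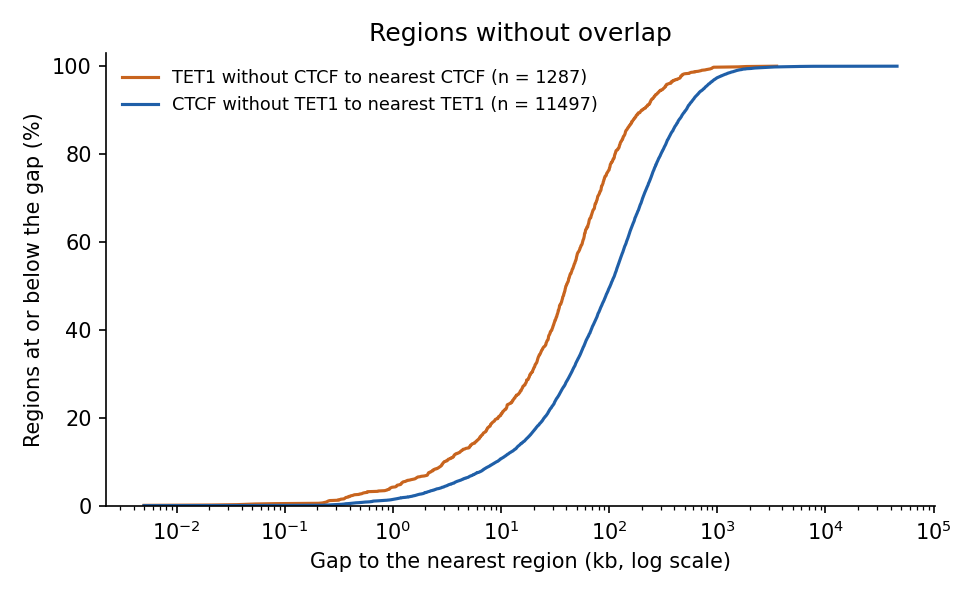
Cumulative share of the regions without overlap (vertical, %) against the gap in kb (log scale) to the nearest region of the other list, for 1287 TET1 and 11497 CTCF regions. The TET1 curve lies left of the CTCF curve, with medians of 40093 and 102103 bp, and few regions of either list lie within 1 kb.

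TET1 regions without CTCF had like shares of MBD2 at all distances from CTCF. The median fold was 2.70 for the 169 regions within 5000 bp of CTCF, 2.96 for the 559 between 5000 and 50000 bp and 2.94 for the 559 beyond. MBD2 was listed at 39.6% (32.6 to 47.2), 37.2% (33.3 to 41.3) and 37.03% (33.1 to 41.1) of them, with overlapping intervals.

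TET1 regions without CTCF were named for their fold or for their gap to CTCF. The highest fold, 6.37 (rank 121 of the TET1 list), lay on chromosome 16 from 85454398 to 85454664, 4149 bp from a CTCF region, at a pileup of 47 over 6.54 fragments, and no other list held it. On chromosome 7 from 107365683 to 107365933 the TET1 fold was 5.88, with MBD2 at 4.67, and CTCF lay 153952 bp away. On chromosome 13 from 25949936 to 25950200 the folds were 5.63 for TET1, 8.43 for MBD2 and 5.68 for MBD3. Among the regions that could be named, which exclude weak regions and chromosome ends, the nearest misses were on chromosome 21 from 30118071 to 30118267 (fold 3.02, gap 361 bp) and on chromosome 4 from 41695653 to 41695878 (fold 3.14, gap 425 bp). The farthest of them from CTCF were on chromosome 16 from 6693132 to 6693366 (fold 4.34, gap 1550555 bp) and on chromosome 11 from 41453402 to 41453595 (fold 3.74, gap 1850969 bp). The last rested on 24 fragments over the floor of 5.68.

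Strong CTCF regions without TET1 also existed. In the highest decile of CTCF fold, 521 regions had no TET1 region and 1223 had one. Median folds were 6.92 and 7.33, median pileups 47 and 60 fragments, and median backgrounds 5.55 and 7.01 fragments. MBD2 was listed at 82.1% (78.6 to 85.2) of the regions without TET1 and 96.9% (95.8 to 97.7) of those with it, and MBD3 at 61.04% (56.8 to 65.1) and 90.8% (89.1 to 92.3). The highest fold without TET1 was 12.7 (rank 21), on chromosome 2 from 95539960 to 95540240, with an MBD2 fold of 6.92 and no MBD3 region. On chromosome 16 from 46707369 to 46707717 the CTCF fold was 10.005, and MBD2 and MBD3 had folds of 9.85 and 8.56. A region on chromosome 18 from 12934523 to 12934794 had a CTCF fold of 9.91, with 6.71 for MBD2 and 5.60 for MBD3. All 3 lay over backgrounds of 4.35 to 4.397 fragments, at or near the floor, with the nearest TET1 region 82386 bp or more away.

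MBD2 and MBD3, which the choice of regions did not use, were listed more often where CTCF and TET1 met. In the whole lists, MBD2 was at 67.4% of CTCF and 79.5% of TET1 regions, and MBD3 at 46.4% and 63.4%. At CTCF regions with TET1, MBD2 was listed at 88.7% (87.8 to 89.4) and MBD3 at 72.96% (71.8 to 74.1), against 56.4% (55.5 to 57.3) and 32.8% (32.0 to 33.7) without TET1. At TET1 regions without CTCF, MBD2 was listed at 37.4% (34.8 to 40.1) and MBD3 at 20.1% (18.0 to 22.4). Neither was listed at 6.33% of CTCF regions with TET1, at 35.4% of those without and at 56.8% of TET1 regions without CTCF. The classes differed in strength as well. Median pileup was 46 fragments at CTCF regions with TET1 and 35 at those without. It was 41 at TET1 regions with CTCF and 27 at those without. The part of strength in these shares was not tested.

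Read the other way, the presence of both NuRD subunits went with the highest shares. A TET1 region was found at 8.39% (7.61 to 9.24) of CTCF regions with neither MBD2 nor MBD3, 25.1% (23.9 to 26.3) with MBD2 alone, 23.9% (21.7 to 26.4) with MBD3 alone and 58.5% (57.3 to 59.7) with both. Among CTCF regions below the median fold the shares were 6.67%, 20.6%, 20.8% and 47.5%, and above it 12.8%, 30.1%, 28.3% and 63.7%. In both classes of fold the share was lowest with neither and highest with both, while MBD2 alone and MBD3 alone lay close together. These classes of fold are broad, and pileup was not matched within them. A CTCF region was found at 33.9% (31.2 to 36.8) of TET1 regions with neither, 80.5% with MBD2 alone, 79.9% with MBD3 alone and 95.6% (94.96 to 96.2) with both.

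Local background moved with the shares of overlap as well, and its part in them was not tested. With CTCF regions in quartiles of rising background, TET1 was listed at 26.1% (24.8 to 27.4), 32.9%, 34.9% and 40.4% (38.9 to 41.9) of CTCF regions. CTCF was listed at 67.3% (65.1 to 69.5), 80.3%, 87.2% and 92.4% (91.1 to 93.6) of TET1 regions from the lowest to the highest TET1 background. With only regions of at most 3 times the floor kept in both lists, the overlap shares were 32.1% for CTCF and 79.3% for TET1.

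Chromosomes carried CTCF and TET1 regions in near proportion. Over chromosomes 1 to 22 and X, Pearson's r between the numbers of regions was 0.98 (Spearman's rho 0.98), and between regions per Mb, with the furthest listed end as length, 0.96 (rho 0.88). These are descriptions over 23 chromosomes that share libraries and depth. Chromosome 17 was the densest, with 11.5 CTCF and 5.43 TET1 regions per Mb, followed by chromosome 19 with 10.7 and 4.33. By this length, chromosome 21 was the sparsest, with 3.18 and 1.14, and chromosome 18 was close, with 3.41 and 1.15. Chromosome 13 stood out by TET1 regions per 100 CTCF regions, at 52.0 against 41.3 over all regions and 32.8 on chromosome 9, the lowest.

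The share of CTCF regions with TET1 varied between chromosomes. It was 40.5% (36.2 to 44.96) on chromosome 13 and 40.5% (37.4 to 43.7) on chromosome 17, and 25.6% (20.7 to 31.1) on chromosome 18 and 26.1% (22.5 to 29.9) on chromosome 9. Over the 23 chromosomes the share went with the median local background of CTCF regions, at a rho of 0.76, and less with CTCF regions per Mb, at 0.42. The median background was 9.64 fragments on chromosome 17 and 8.11 on chromosome 13, against 6.43 on chromosome 9 and 7.01 on chromosome 18. The share of TET1 regions with CTCF followed another order, from 75.6% (65.8 to 83.3) on chromosome 18 to 89.6% (83.2 to 93.7) on chromosome 22 and 89.1% (84.6 to 92.3) on chromosome 19.

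**Figure D5:**
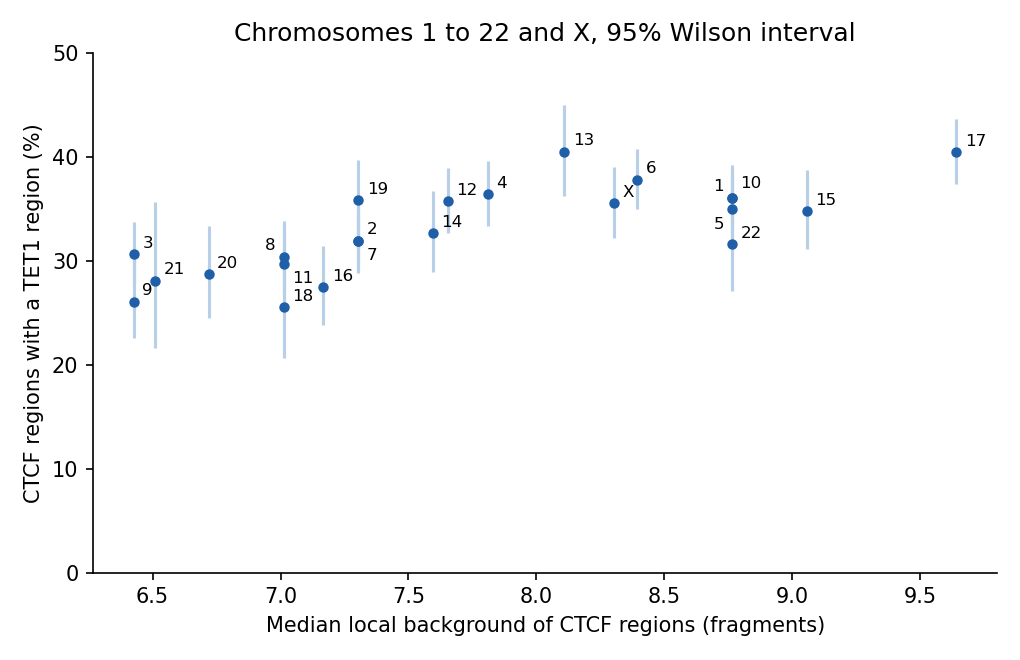
Share of CTCF regions with a TET1 region (vertical, %, with 95% Wilson intervals) against the median local background of the CTCF regions in fragments, 1 point for each of chromosomes 1 to 22 and X. Chromosomes 13 and 17 are the highest at 40.5%, and chromosomes 18 and 9 the lowest at 25.6% and 26.1%.

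Shares near chromosome ends were like those farther inside. Within 1 Mb of the first or last region of a chromosome, 36.4% (31.7 to 41.4) of 376 CTCF regions had TET1 and 83.6% of 165 TET1 regions had CTCF, against 33.9% and 82.1% farther inside. On contigs other than chromosomes 1 to 22, X and Y, 58 of 174 CTCF and 58 of 66 TET1 regions overlapped, at median folds of 2.32 and 1.65.

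Closely spaced CTCF regions had TET1 together more often than distant ones. Where the next CTCF region lay within 2000 bp and had TET1, 54.3% (48.7 to 59.8) of CTCF regions had TET1, against 38.6% (34.1 to 43.4) where it had none. From 2000 to 10000 bp the shares were 40% (36.2 to 43.9) and 34.3% (31.5 to 37.3), and from 10000 to 50000 bp 35.5% (33.1 to 38.0) and 34.5% (32.8 to 36.3). Over 200000 bp they were 29.9% and 29.8%. For CTCF, intervals overlapped in all classes but the nearest. TET1 regions whose next TET1 region lay within 2000 bp had CTCF in 88.5% (83.3 to 92.2) of 200 cases where the neighbour had it, and in 65.4% (46.2 to 80.6) of 26 where it had not. The 9 TET1 regions that met 2 CTCF regions count for both of them, as do the 21 CTCF regions that met 2 TET1 regions.

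Few of the regions recurred under treatment, and those that did were mostly pairs. The treated lists were short, with 375 CTCF and 777 TET1 regions under BPK25 and 595 CTCF regions under IAA. Lists this short could meet few DMSO regions. Of all CTCF regions, 3.84% met a TET1 region under BPK25, 1.27% a CTCF region under BPK25 and 0.952% one under IAA. Of all TET1 regions, 6.91% met a TET1 region under BPK25. CTCF regions with TET1 overlapped a TET1 region of BPK25-treated cells in 8.12% (7.45 to 8.85) of cases and those without in 1.65% (1.43 to 1.897). A CTCF region of BPK25-treated cells was found at 2.71% (2.32 to 3.15) and 0.538% (0.420 to 0.689) of them, and one of IAA-treated cells at 2.37% (2.01 to 2.79) and 0.225% (0.154 to 0.330). Of TET1 regions, 8.17% (7.50 to 8.90) of those with CTCF and 1.09% (0.648 to 1.81) of those without were TET1 regions under BPK25. None of the 1289 TET1 regions without CTCF met a CTCF region under IAA, which allows a share of up to 0.297% by the Wilson interval. Fold was higher in pairs, so these shares do not compare regions of equal strength. Within the highest decile of CTCF fold, 17.5% (15.5 to 19.7) of regions with TET1 and 3.84% (2.499 to 5.85) of those without overlapped a region of any treated list. In that decile too, regions with TET1 were stronger, at median folds of 7.33 against 6.92 and median pileups of 60 against 47 fragments.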

How the data were processed

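ChIP-seq peak lists of HEK293T cells in DMSO were analysed, 1 for CTCF and 1 for TET1, each called by the authors on 3 libraries together. The submitters' processing notes name hg19 as the build and list MACS2 2.1.2, Bowtie2 2.3.4, deepTools 3.5.0, SAMtools 1.9, FastQC 0.11.7 and bedtools 2.25.0. For the peak caller, no source used here gives settings. Each deposited row gives a fold enrichment, which is a linear ratio, a p-value and a q-value as −log10, a summit offset and a score. The authors' score was not used, and their fold and −log10 values served to describe, rank and select regions. Folds of CTCF and TET1 were also set side by side, without any scaling between the antibodies.

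Rows with a common start and end were merged, and the row of largest −log10 p gave the values. Printed coordinates count from 1. Gaps run from edge to edge. Intervals of shares are 95% Wilson intervals, those of medians are binomial order-statistic intervals. The interval of a width difference takes the outer ends of the intervals of both medians, which makes it wider than 95%. Pileup and background were solved from fold, read as pileup plus 1 over background plus 1, and the Poisson tail, for whole pileups up to 400 and −log10 p up to 150, within 0.02% of −log10 p. Peak lists do not give the depth of each library.

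The regions named had a −log10 q of at least 5 and lay on chromosomes 1 to 22 or X, 1 Mb or more inside the outermost regions. They are the 4 pairs of best rank in both lists, the 3 of highest fold without the other protein in each list, the 3 pairs with the most distant summits, the 2 largest gains and 2 largest losses in percentile, and the 2 nearest and 2 farthest TET1 regions without CTCF. The comparison, the rule and the alternatives were chosen with earlier results of these data known. The scripts were tested on simulated data, which did not reach the highest backgrounds or the lowest folds of these lists. Python 3.11.15, numpy 2.4.6, pandas 2.3.3, SciPy 1.17.1 and matplotlib 3.10.9 were used. Sequence and gene annotation were not used here.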

Additional observations from a re-analysis of the deposited data

How the results depend on the processing

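The results were recomputed under 10 alternatives, 1 of them (regions of raised background left out of both lists) chosen after seeing the data. Of 90 values, 48 stayed within the interval of the reported value, 42 moved and 0 reversed. Only a change of sign was counted as reversed, which applies to rho and the width differences. Shares, distances, gaps and region ratios have no sign, and for them the count of 0 is not a test. With the CTCF list shortened, the median gaps changed order, at 99639 bp from TET1 and 89619 bp from CTCF, and were counted as moved. No value moved with contigs and Y left out, with an overlap minimum of 50% of the shorter region or with 1 Mb at chromosome ends left out. The causes of the moves were not tested, and the number of regions changed under several alternatives.

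At a −log10 q of 5 or more, the CTCF and TET1 shares in overlap were 30.2% and 89.5%, the median summit distance 11 bp, the share within 50 bp 96.1%, the gaps 52500 bp from TET1 and 146927 bp from CTCF, rho 0.66 and TET1 regions per 100 CTCF regions 33.8. At a fold of 5 or more, which left 5475 CTCF and 545 TET1 regions, these were 9.42%, 94.7%, 9 bp, 97.5%, 156561 bp, 1483710 bp, 0.53 and 9.95, and paired TET1 regions were 23 bp (0 to 54) wider than the others. With the CTCF list shortened to 7211 regions they were 51.8%, 51.9%, 11 bp, 96.02%, 99639 bp and 89619 bp, with 100 TET1 regions per 100 CTCF regions by construction. With pairs defined by summits within 150 bp, the shares were 32.8% and 79.2%, the share within 50 bp 93.1%, the gap from TET1 31349 bp and the TET1 width difference 5 bp (0 to 9). Nearest summits gave 91.3% within 50 bp. Without regions of any treated list the shares were 31.7% and 80.4%, the share within 50 bp 90.6%, the gap from CTCF 112550 bp, the CTCF width difference 36 bp, rho 0.66 and the ratio 39.5. With low background alone, they were 32.1% and 79.3%, the gaps 45299 bp and 120021 bp, and rho 0.65.

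No paired analysis was possible because each list pools replicates 1 to 3, and for the same reason leaving out a replicate was not run. Motif and gene position around the summits were not run.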
